A study of Homo sapiens with 27 samples.

Results

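The mRNAs of the cytosolic ribosomal proteins were followed in U937 cells treated with matrine. Genes were taken as members when they were annotated as protein-coding and their symbol had the RPL or RPS form of a cytosolic ribosomal protein, or was RPLP0, RPLP1, RPLP2, RPSA or FAU, with the RPS6K kinases left out. This gave 87 genes, of which 86 were among the 57905 genes of the deposited table. A mean level above 1 FPKM (mapped fragments scaled for transcript length and library depth) over the 9 libraries was reached by 82 of them. These 82 genes, 32 of the 40S and 50 of the 60S subunit, are the members described here. They include 5 near copies of a core gene, RPL7L1, RPL22L1, RPL26L1, RPL39L and RPS27L. The 4 genes below the limit included RPL10L, which was listed at 0 in every library, RPL3L with 0 to 0.15 FPKM, and the Y-linked RPS4Y1.

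U937 is a human myeloid leukaemia cell line, and matrine is a quinolizidine alkaloid from Sophora roots. The 3 groups were control cells and cells exposed to matrine at 0.8 mg/ml, either for 30 min or for 24 h, with 3 libraries each. The study dissolved matrine in ddH2O, its libraries of HL-60 and K562 cells are not analysed here, and the same 3 control libraries served both times. The culture time of the controls is not given in the sources used here, so treatment for 24 h and time in culture cannot be told apart. The study speaks of independent replicates for its data in general, but neither it nor the labels say whether the libraries of a group came from separate cultures, so p-values measure only the spread between these libraries, which may be technical. Total counts ran from 17314931 to 21930018 per library, and 9 of 10 myeloid markers were above 1 FPKM in every library, the exception being MPO at 0.21 to 1.94 FPKM. Of the erythroid markers 6 of 7 stayed under 1 FPKM in every library, HBG1 and HBE1 among them at 0, and of the lymphoid markers 4 of 6, MS4A1, CD3E and CD3D at 0. The exceptions included KLF1 at 2.4 to 4.12 FPKM and CD79A at 1.25 to 2.74 FPKM. A bulk library cannot tell fewer cells of a type from less RNA per cell.

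Each ribosome holds a single copy of nearly every ribosomal protein, the stalk proteins RPLP1 and RPLP2 being the known exception, and cells coordinate the output of these genes with that of ribosomal RNA. c-Myc is a known activator of their transcription. The mRNAs start with a C followed by a run of pyrimidines, the terminal oligopyrimidine (TOP) motif, through which mTOR and the protein LARP1 control their translation and their stability. Many of the genes also carry small nucleolar RNAs (snoRNAs) in their introns, and the family has left a large number of processed pseudogenes in the genome.

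The start sequences of the members are shown because the TOP motif is what these mRNAs share. RefSeq start windows (GRCh38.p14) were found for 67 of the 82 members, and a C at the start followed by at least 4 pyrimidines was present in 48 of the 67 (71.6%), against 1404 of 27305 genes with a window (5.14%). The 30 bases printed run 5′ to 3′ from 10 before the start to 20 from the start on, and the capitals mark the start base and the pyrimidines that follow it without a break.
RPLP0 (chr12:120201092-120201121, minus strand): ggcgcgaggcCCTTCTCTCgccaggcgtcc
RPLP1 (chr15:69452808-69452837, plus strand): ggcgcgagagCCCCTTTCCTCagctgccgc
RPS27 (chr1:153990752-153990781, plus strand): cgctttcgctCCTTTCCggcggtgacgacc
RPL14 (chr3:40457329-40457358, plus strand): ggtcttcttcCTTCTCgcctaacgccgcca
RPL35 (chr9:124861938-124861967, minus strand): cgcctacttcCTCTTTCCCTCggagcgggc
RPL36 (chr19:5690285-5690314, plus strand): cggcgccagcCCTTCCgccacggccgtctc
RPL36A (chrX:101391001-101391030, plus strand): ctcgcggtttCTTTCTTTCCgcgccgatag
RPL21 (chr13:27251548-27251577, plus strand): ccgcctctttCCTTTCggccggaaccgcca
RPL26 (chr17:8383174-8383203, minus strand): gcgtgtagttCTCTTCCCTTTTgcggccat
RPL26L1 (chr5:172958719-172958748, plus strand): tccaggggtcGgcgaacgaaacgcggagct
RPL7L1 (chr6:42879606-42879635, plus strand): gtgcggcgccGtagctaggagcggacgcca
RPS27L (chr15:63157458-63157487, minus strand): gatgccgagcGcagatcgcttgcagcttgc
RPS26 (chr12:56041908-56041937, plus strand): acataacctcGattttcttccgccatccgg
The first 3 genes are core members that rose at 24 h, the next 6 are core members that fell, and the last 4 have no TOP start at the annotated position. Among the last 4 are 3 near copies, of which RPL26L1 and RPL7L1 fell and RPS27L rose. Another annotated start of RPL26L1 (chr5:172958870-172958899) begins with A and carries no such run either.

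The comparison at 24 h asked how these mRNAs differed once the cells had been exposed to matrine for a day. Most of them were modestly lower, with the 60S genes RPL14 and RPL35 and the near copies RPL7L1 and RPL26L1 among the largest decreases. A few went the other way, the stalk genes RPLP0 and RPLP1 and the near copy RPS27L in the lead. Within each library the members took a share of all gene counts that needs no scaling between libraries. In the controls this share was 6.05%, 6.73% and 6.01%, after 30 min it was 6.86%, 6.42% and 6.47%, and after 24 h it was 5.53%, 5.64% and 5.83%. All 3 libraries of 24 h lay below all 3 controls and all 3 libraries of 30 min, whereas the ranges of the control and of 30 min overlapped. The mean share was 6.26% ± 0.408 (SD, n = 3) in the control, 6.58% ± 0.238 (SD, n = 3) at 30 min and 5.66% ± 0.155 (SD, n = 3) at 24 h. A two-sided exact permutation test gave p = 0.1 for 24 h against control, which is the smallest value 3 against 3 libraries allow, and p = 0.3 for 30 min against control. Without control replicate 2, the highest control, the difference between 24 h and control shrank from -0.597 to -0.362 percentage points, and that between 30 min and control grew from 0.323 to 0.558. The 95% Wilson interval of a share was at most 0.0112 percentage points to either side and covers counting error only. The 40S share went from 2.55% ± 0.183 to 2.33% ± 0.0638 and the 60S share from 3.71% ± 0.225 to 3.34% ± 0.0917 (SD, n = 3 each).

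**Figure D1:**
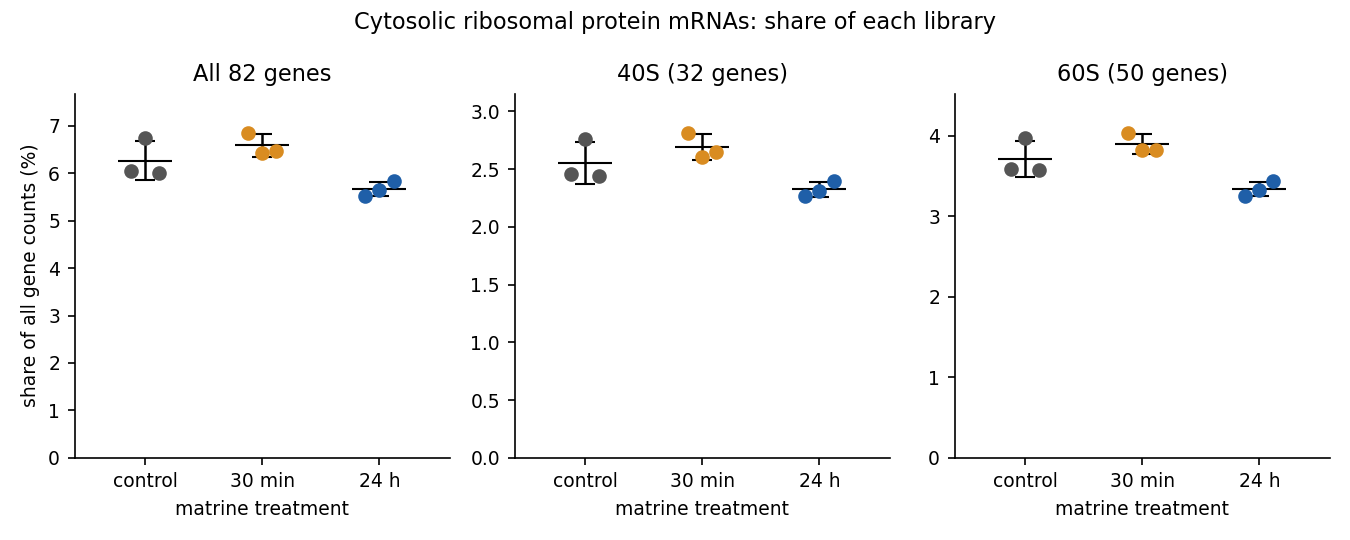
Share of all gene counts, in percent, taken by the 82 cytosolic ribosomal protein genes and by their 40S and 60S members, with 1 point per library, a line at the mean and bars of 1 SD (3 libraries per group). The 24 h libraries (5.53% to 5.83% for all members) lie below the controls and the 30 min libraries, and control replicate 2 (6.73%) stands above the other controls.

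After 24 h of matrine treatment, 56 of the 82 members were down-regulated and 4 were up-regulated at an adjusted p below 0.05 (quasi-likelihood test of edgeR, adjusted by the Benjamini-Hochberg method). The background was 31.8% of 12035 genes down-regulated and 31.5% up-regulated, so 68.3% and 4.88% of the members stand against near equal parts of all genes. The changes were small. The median log2 fold change of the members was -0.22, a decrease to 0.859 of the control level, against 0.01 over all genes tested. When a fold change of at least 1.5 was also required, 5 members were down-regulated (RPL26L1, RPL7L1, RPL21, RPL14 and RPL35) and 0 were up-regulated, against a background of 11.2% and 15.1% of all genes. The 5 members are 6.10% of the 82, a smaller part than that of all genes down-regulated at this threshold. No member reached a 1.5-fold increase at an unadjusted p below 0.05 either (0 of 82), and DESeq2 and limma on log2(FPKM + 0.1) also gave 0. The quartiles of the members were -0.35 and -0.12, a range of 0.23, while the interquartile range of all genes was 0.70. This background was not matched to the members for mRNA level. With a filter of 5 FPKM the median of the members minus that of all genes was -0.15, against -0.23 in the main fit. Of the 82 estimates 74 were below 0, against 5946 of all 12035 genes tested. The members tended to move together from library to library. Their estimates and calls come from the same libraries and are not separate observations.

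**Figure D2:**
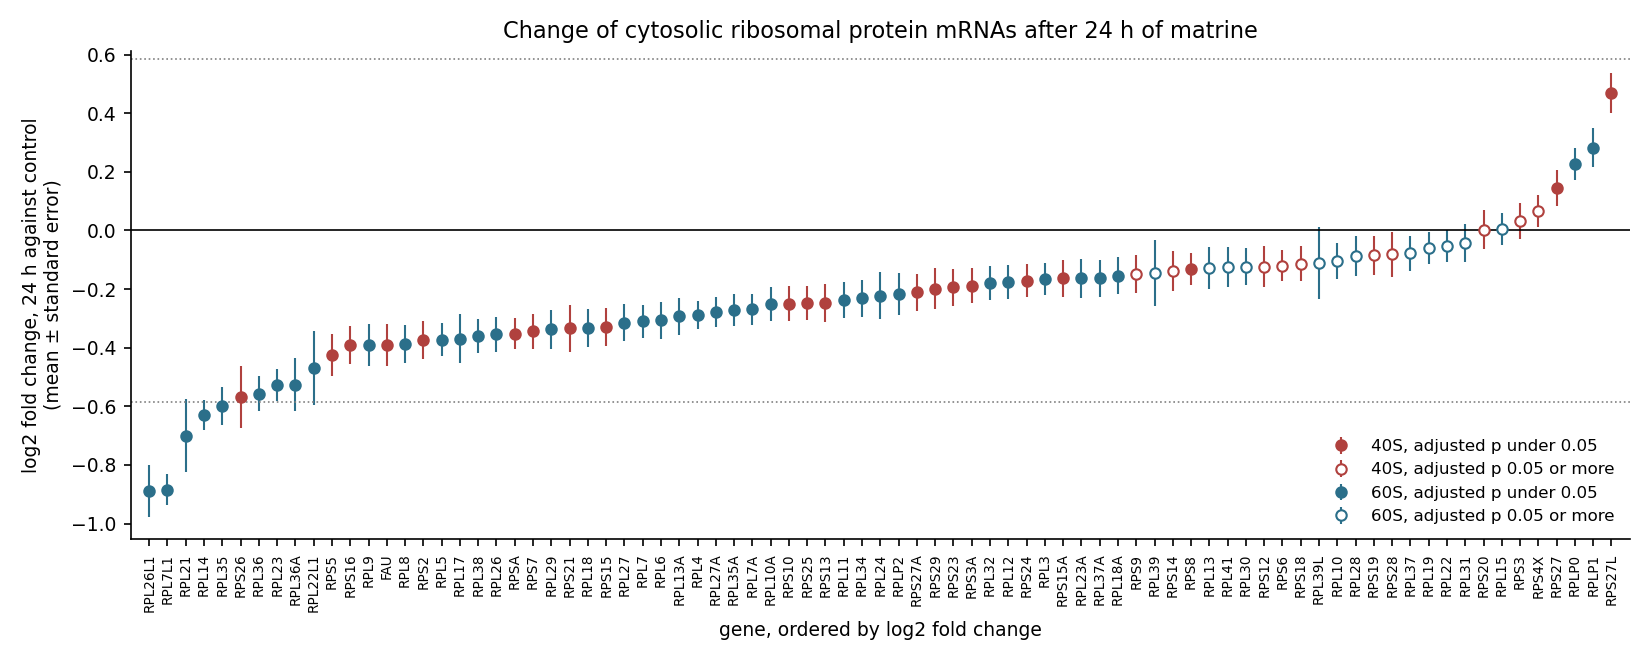
Log2 fold change of 81 of the 82 members at 24 h against the control, with its standard error, ordered from the lowest to the highest. Red points are 40S and blue points 60S members, filled points have an adjusted p below 0.05, and dotted lines mark a 1.5-fold change. The values run from -0.89 for RPL26L1 to 0.47 for RPS27L, and 5 members lie below the lower dotted line.

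Control replicate 2 stood apart for these genes. It gave the highest level of the 3 controls for 78 of the 82 members. Without it 46 members were down-regulated and 4 were up-regulated at 24 h, and the median log2 fold change was -0.17. The number of members down-regulated 1.5-fold stayed at 5 without it. On the log2 scale, the median deviation of the members from their mean over the 9 libraries was 0.16 in control replicate 2. In control replicates 1 and 3 this median was -0.02 and -0.04, and its SD between libraries of a group was 0.080.

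**Figure D3:**
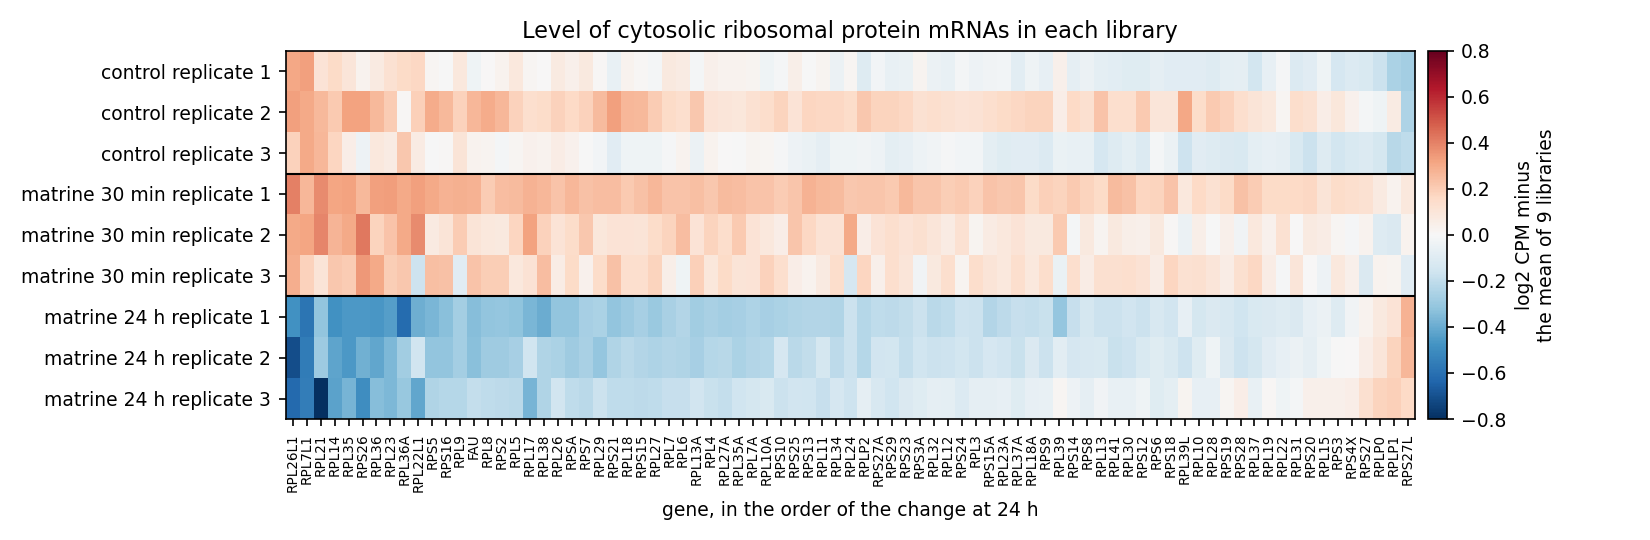
Level of 81 of the 82 members (columns, in the order of the change at 24 h) in each library (rows), as log2 normalised counts minus the gene's mean over the 9 libraries, red above and blue below that mean. Control replicate 2 and all 30 min libraries are mostly red, and over all 82 members 79 were above their mean in control replicate 2 and 82 in replicate 1 of 30 min. In the 24 h libraries 4, 5 and 13 of the 82 were above it.

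Among the core members with a mean above 100 FPKM over the 9 libraries, the 4 largest decreases at 24 h were those of the 60S genes RPL14, RPL35, RPL36 and RPL23. RPL14 was measured at 292.25, 298.34 and 296.61 FPKM in the controls, 315.62, 311.36 and 297.14 FPKM after 30 min and 193.05, 201.31 and 198.58 FPKM after 24 h. Its 24 h libraries lay far below all others, at -0.63 on the log2 scale (standard error 0.050, adjusted p = 7.2e-10, edgeR). RPL35, which sits at the rim of the exit tunnel where the nascent chain leaves the ribosome, went from 372.53, 426.70 and 362.81 FPKM to 260.86, 259.99 and 273.03 FPKM, or -0.60 on the log2 scale (standard error 0.064, adjusted p = 5.6e-08, edgeR). The control and 24 h libraries of RPL35 did not overlap. RPL36 (control mean 288.6 FPKM, 24 h mean 203.0 FPKM) and RPL23, a protein of the subunit interface to which the anti-association factor EIF6 binds (135.5 and 97.2 FPKM), had log2 fold changes of -0.56 and -0.53, just short of a 1.5-fold change.

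RPL21, which fell more than these 4, RPS26, which fell more than RPL36, and RPL36A were also among the larger decreases but were measured at low levels. RPL21 was at 11.91, 12.99 and 13.33 FPKM in the controls and at 9.13, 9.24 and 5.98 FPKM at 24 h (log2 fold change -0.70, standard error 0.125, adjusted p = 5.0e-05, edgeR). Replicate 3 of 24 h was the lowest of the 9 libraries for it. RPL36A, which lines the exit site for tRNA, was at 10.48, 9.27 and 10.94 FPKM in the controls and 6.31, 7.95 and 7.74 FPKM at 24 h (log2 fold change -0.53, standard error 0.089, adjusted p = 3.0e-05, edgeR). RPS26, a 40S protein at the mRNA exit channel, was at 11.33, 13.65 and 10.83 FPKM in the controls and 8.30, 8.72 and 7.98 FPKM at 24 h (log2 fold change -0.57, standard error 0.105, adjusted p = 7.5e-05, edgeR). These genes have many pseudogenes in the table, 133 for RPL21, 52 for RPL36A and 36 for RPS26, and the pseudogenes held 47.9%, 79.1% and 6.51% of the counts of gene and pseudogenes together. How the counting treated reads with several matches is not given in the sources used here. With the pseudogene counts added, the log2 fold change was -0.47 for RPL21, -0.14 for RPL36A and -0.58 for RPS26, so that the decrease of RPL36A became smaller by more than 1.5 times, at an adjusted p of 0.0456 (edgeR).

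The ribosomal stalk, the flexible arm that recruits the translation GTPases, was split. RPLP0, its base, went from 397.80, 427.60 and 406.38 FPKM in the controls and 453.90, 408.53 and 443.26 FPKM at 30 min to 485.03, 490.80 and 514.23 FPKM at 24 h. RPLP1, an acidic arm protein, was at 531.29, 647.55 and 543.40 FPKM in the controls, 620.65, 572.24 and 623.96 FPKM at 30 min and 702.24, 732.13 and 731.95 FPKM at 24 h. For both genes the 24 h libraries were above all others. The log2 fold changes at 24 h were 0.23 for RPLP0 (standard error 0.055, adjusted p = 0.0012, edgeR) and 0.28 for RPLP1 (standard error 0.067, adjusted p = 0.0010, edgeR). RPLP2, the partner with which RPLP1 forms a dimer, fell by 0.22 on the log2 scale (standard error 0.071, adjusted p = 0.012, edgeR), from 259.0 ± 27.4 to 230.7 ± 13.0 FPKM (SD, n = 3 each). Its call was lost without control replicate 2 and without replicate 1 or 2 of 24 h. RPL12, which lies beside the stalk base, fell by 0.18 (standard error 0.058, adjusted p = 0.011, edgeR), a call lost without replicate 1 of 24 h. RPLP0 and RPLP1 have few counts on pseudogenes, 3.67% and 0.0218%.

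**Figure D4:**
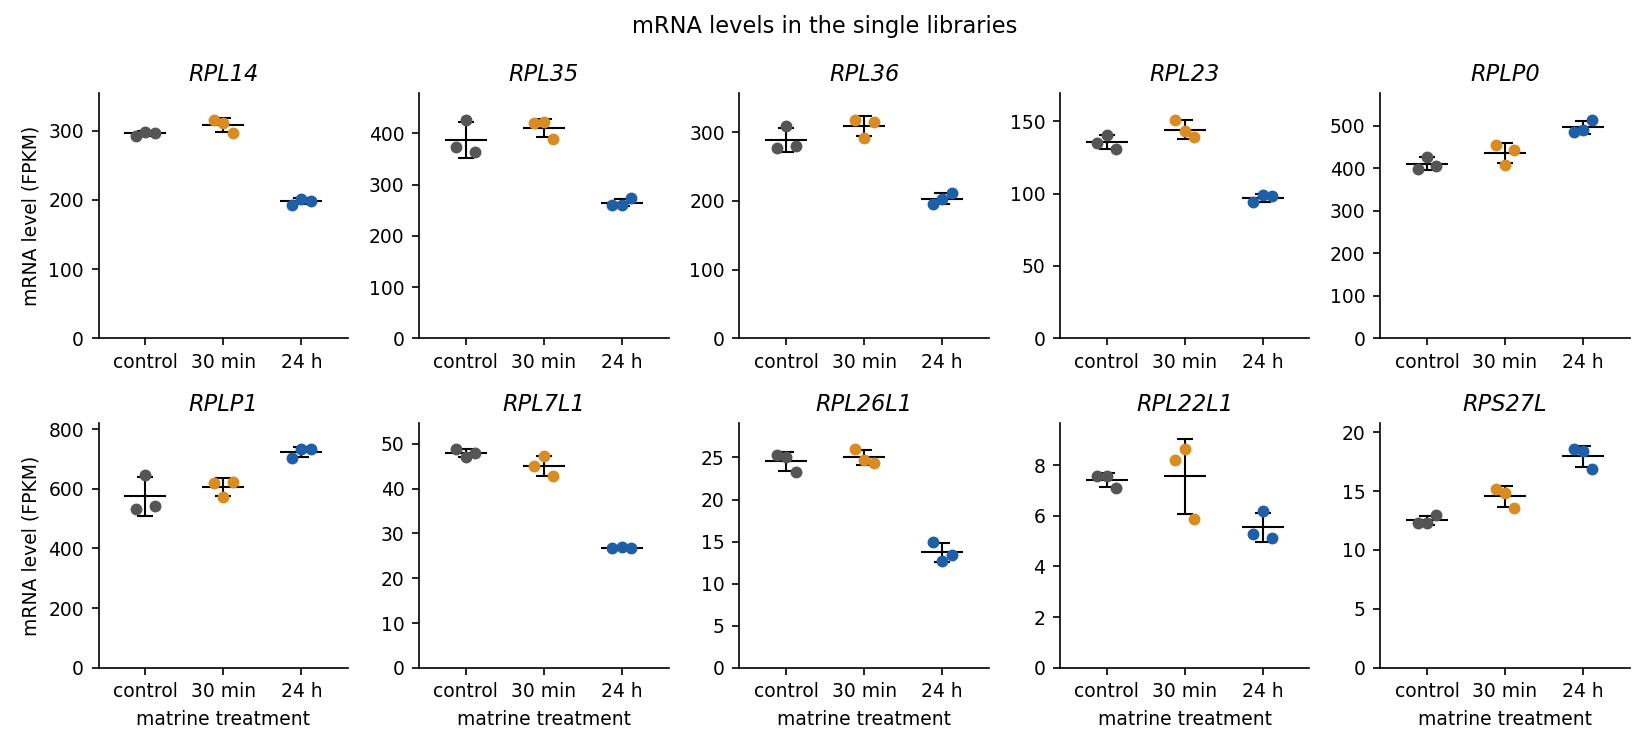
mRNA levels in FPKM of 10 members in the 9 libraries, with 1 point per library, a line at the mean and bars of 1 SD (3 libraries per group) and axes from 0. The top row shows RPL14, RPL35, RPL36 and RPL23, with all 24 h libraries below the others, and RPLP0, with all 24 h libraries above them. The bottom row shows RPLP1, which rose, and the near copies RPL7L1, RPL26L1, RPL22L1 and RPS27L.

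RPL5 and RPL11 carry the 5S rRNA into the 60S subunit, and outside the ribosome they bind MDM2. Both fell at 24 h, RPL5 from 302.9 ± 14.3 to 242.0 ± 7.02 FPKM (log2 fold change -0.37, standard error 0.057, adjusted p = 8.0e-06, edgeR) and RPL11 from 499.2 ± 35.4 to 438.2 ± 13.7 FPKM (-0.24, standard error 0.062, adjusted p = 0.0022, edgeR). Of the 8 members around the exit tunnel 5 fell and 0 rose, beside 56 and 4 of all 82 members. Of all genes tested 31.8% fell and 31.5% rose. RPL4 was at -0.29 and RPL17 at -0.37 on the log2 scale, beside RPL35 and RPL26. RPL39 at -0.14 (adjusted p = 0.27, edgeR) did not pass. With 94.6% of its counts on pseudogenes, RPL39 changed direction to 0.18 when these were added (adjusted p = 0.0064, edgeR), so no direction can be given for it. RPL17 has 85.8% on pseudogenes and shares 32.9% of its exonic bases with other genes of the table, among them the read-through gene RPL17-C18orf32. RPL10, which joins the 60S subunit late, was at 119.9 ± 10.2 FPKM in the control and 115.5 ± 2.29 FPKM at 24 h and did not pass (log2 fold change -0.10, adjusted p = 0.15, edgeR).

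In the 40S subunit 20 of 32 members fell and 2 rose, with a median log2 fold change of -0.18. In the 60S subunit 36 of 50 fell and 2 rose, with a median of -0.26. Of all genes tested 31.8% fell and 31.5% rose. RPSA fell by 0.35 (standard error 0.054, adjusted p = 7.5e-06, edgeR) and RPS2, near the mRNA entry, fell by 0.37 (standard error 0.065, adjusted p = 3.7e-05, edgeR). Other proteins of the head and body did not pass. RPS3, at the mRNA entry, had a log2 fold change of 0.03 (adjusted p = 0.67, edgeR), RPS4X of 0.07 (adjusted p = 0.30, but called higher with a filter of 5 FPKM and with library totals alone) and RPS19 of -0.08 (adjusted p = 0.28). RPS14, whose loss marks a form of myelodysplastic syndrome, was at -0.14 (adjusted p = 0.076, edgeR) and passed without control replicate 1, replicate 1 of 30 min or replicate 3 of 24 h. RPS6, the substrate of the S6 kinases, was at -0.12 (adjusted p = 0.054, edgeR) and passed with DESeq2 and without control replicate 1 or any replicate of 30 min. FAU and RPS27A are made as fusions with a ubiquitin-like protein and with ubiquitin, and they fell by 0.39 (adjusted p = 7.1e-05, edgeR) and 0.21 (adjusted p = 0.0054, edgeR). RPS27 rose from 355.97, 376.29 and 359.65 FPKM to 405.78, 411.85 and 430.30 FPKM without overlap, but its log2 fold change of 0.14 had an adjusted p of 0.044 (edgeR) that was lost with DESeq2 and when control replicate 1 or 3, replicate 1 of 30 min or any replicate of 24 h was left out.

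Among the most abundant members were RPS18 with a mean of 1054 FPKM over the 9 libraries and RPL8 with 826 FPKM. RPL8 fell by 0.39 on the log2 scale (standard error 0.066, adjusted p = 2.8e-05, edgeR), whereas RPS18 did not pass (log2 fold change -0.11, adjusted p = 0.10, edgeR). The least abundant by the FPKM listed were RPL39 with 6.16 FPKM, RPL22L1 with 6.83 FPKM and RPL36A with 9.54 FPKM. For RPL39 and RPL36A, pseudogenes held 94.6% and 79.1% of the counts of gene and pseudogenes together. The low rank of RPL39 and RPL36A thus depends on how shared reads were counted and need not reflect their mRNA level. Across the 82 members the log2 mean level and the log2 fold change at 24 h had a Pearson r of 0.23 and a Spearman rho of 0.12. This is a description over genes of the same libraries, with levels as listed and no allowance for reads on pseudogenes. Of the other genes chosen by name, RPL38 fell by 0.36, RPL10A by 0.25, RPS25 by 0.25 and RPL13A by 0.29 on the log2 scale, with adjusted p values of 1.6e-05, 7.1e-04, 8.6e-04 and 4.0e-04 (edgeR).

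Mutations in a number of ribosomal protein genes cause Diamond-Blackfan anaemia, a failure of red cell production. Of all 82 members 56 fell and 4 rose at 24 h (median log2 fold change -0.22), against 31.8% and 31.5% of all genes tested. Of the 13 members listed as such, 10 fell and 0 rose, with a median of -0.25, near that of the family. Among the 13, RPS26 had the lowest value. RPS19, the gene mutated most often in that disease, RPS28 and RPL15 did not pass. For these genes, those of the exit tunnel and those with a snoRNA inside, 0 were higher at an unadjusted p below 0.05 as well, and 0 rose with DESeq2.

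The near copies covered the whole range of the family. RPL7L1, a relative of RPL7 found in pre-60S particles of the nucleolus, was at 48.79, 47.04 and 48.03 FPKM in the controls, 44.97, 47.39 and 42.84 FPKM at 30 min and 26.67, 27.04 and 26.84 FPKM at 24 h. RPL26L1 was at 25.24, 25.11 and 23.22 FPKM in the controls, 25.97, 24.75 and 24.30 FPKM at 30 min and 14.97, 12.74 and 13.41 FPKM at 24 h. These were the lowest log2 fold changes of all members at 24 h, -0.88 for RPL7L1 (standard error 0.052, adjusted p = 7.8e-12, edgeR) and -0.89 for RPL26L1 (standard error 0.089, adjusted p = 2.1e-08, edgeR). Their parents RPL7 and RPL26 fell by 0.31 and 0.35 on the same scale. RPL22L1, which can take the place of RPL22, was at 7.57, 7.55 and 7.10 FPKM in the controls and 5.29, 6.19 and 5.14 FPKM at 24 h (log2 fold change -0.47, standard error 0.125, adjusted p = 0.0026, edgeR), while RPL22 had a log2 fold change of -0.05 (adjusted p = 0.40, edgeR).

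RPS27L, a known target of p53, had the largest increase of all members. It was at 12.33, 12.30 and 12.96 FPKM in the controls, 15.21, 14.86 and 13.57 FPKM at 30 min and 18.54, 18.38 and 16.87 FPKM at 24 h, so that the 3 groups did not overlap. Its log2 fold change was 0.47 at 24 h (standard error 0.068, adjusted p = 4.2e-06, edgeR). RPL39L did not pass, with 11.9 ± 2.06 FPKM in the control and 11.4 ± 0.681 FPKM at 24 h (SD, n = 3 each). RPL3 fell by 0.17 (adjusted p = 0.014, edgeR), a call lost without replicate 1 or 2 of 24 h, and its muscle copy RPL3L was below the limit.

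Taken as a percentage of the parent's FPKM within each library, RPL7L1 went from 12.3% ± 0.675 of RPL7 in the control to 8.23% ± 0.165 at 24 h (SD, n = 3 each). RPL26L1 went from 17.8% ± 0.744 to 12.3% ± 1.51 of RPL26, and RPL22L1 from 7.97% ± 0.0946 to 5.99% ± 0.609 of RPL22. RPS27L went from 3.45% ± 0.168 to 4.32% ± 0.348 of RPS27. In these 4 pairs the control and 24 h libraries did not overlap (two-sided exact permutation p = 0.1 each, the smallest possible, adjusted p = 0.17 over 15 comparisons). RPL39L was at 192% ± 30.5 of RPL39 in the control and 198% ± 24.4 at 24 h (exact permutation p = 0.6). Pseudogenes held 94.6% of the counts of RPL39 and its pseudogenes together. This percentage therefore rests on how shared reads were counted and does not rank the 2 genes.

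At 30 min no member passed the test. The background was 1.33% of 11587 genes down-regulated and 0.293% up-regulated, or 0.544% and 0.0949% with a 1.5-fold change. At an unadjusted p below 0.05, 9 members were higher and 0 were lower in edgeR, and after adjustment DESeq2 called 1 member higher, RPS27L, and 0 lower. The values were small and mostly of the same sign: 79 of 82 estimates were above 0, against 5616 of all 11587 genes tested. The median log2 fold change of the members was 0.09, against -0.0043 over all genes, with quartiles of 0.06 and 0.11. The estimates come from the same libraries and are not independent of each other. RPS27L had the highest value, 0.23 (standard error 0.069, adjusted p = 0.11, edgeR), which passed without replicate 3 of 30 min (0.28, adjusted p = 0.033), and RPL7L1 the lowest, -0.08 (standard error 0.052, adjusted p = 0.65, edgeR). The median moved with single libraries. Without control replicate 2 it was 0.15, and RPL37, RPS21 and RPL37A passed as higher, with log2 fold changes of 0.24, 0.25 and 0.22, while without replicate 1 of 30 min the median was 0.05.

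Between the treated groups the decrease was wider. From 30 min to 24 h 71 of the 82 members were down-regulated and 2 up-regulated, against a background of 32.6% and 32.5% of 11981 genes, and the median log2 fold change was -0.33, a decrease to 0.794. With a 1.5-fold change 9 fell and 0 rose, against 11.5% and 15.4%, and 0 rose 1.5-fold at an unadjusted p below 0.05 or with DESeq2. The 9 were RPL26L1 at -0.95, RPL7L1 at -0.83, RPS26 at -0.80, RPL21 at -0.79, RPL14 at -0.72, RPL35 at -0.71, RPL36 at -0.68, RPL36A at -0.67 and RPL23 at -0.65. The 2 that rose were RPS27L at 0.22 (adjusted p = 0.0072, edgeR) and RPLP1 at 0.17 (adjusted p = 0.028, edgeR). The call of RPLP1 was lost without replicate 2 of 30 min, without replicate 2 or 3 of 24 h, with no filter and with TMM factors over all genes, so that 1 member rose in each of these except in the fit with no filter, where RPS27L was lost as well. RPLP0 at 0.11 did not pass here (adjusted p = 0.083, edgeR), but it passed as higher with a filter of 5 FPKM, with library totals alone, with limma on either scale and without control replicate 2 or replicate 1 of 30 min, so that 3 members rose in each of these 6 settings. RPS27 at 0.05 did not pass.

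Members were also grouped by features that the choice of genes did not use. At 24 h 56 of all 82 members fell and 4 rose, against 31.8% and 31.5% of all genes tested. Of the 28 members with a snoRNA gene inside, 20 fell and 0 rose at 24 h, with a median log2 fold change of -0.18, and of the other 54 members 36 fell and 4 rose, with a median of -0.24. Of the 48 members with a TOP start 31 fell and 3 rose (median -0.22). Of the 19 with a window but no TOP start at the annotated position 14 fell and 1 rose (median -0.29). The 19 hold near copies and also core members such as RPL4, RPL9 and RPL27, which have a pyrimidine run shortly after the annotated start. The split therefore depends on the annotated start and does not separate mRNAs with and without the motif. RPLP0, RPLP1 and RPS27, which rose, thus carry the same kind of start as RPL14, RPL35 and RPL36, which fell. In the 300 bases around the start (250 before and 50 after), the E-box CACGTG, a sequence that c-Myc can bind, was present in 5 of the 67 members with a window (7.46%) and in 8.77% of all genes with a window. CCGGAAG, as in binding sites of ETS factors, was found on either strand in 35.8% of the members and 12.2% of all genes. AAGATGGC, as in sites of YY1, was found on either strand in 11.9% and 3.52%. A match is a run of letters and not a measured site.

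Pseudogenes named after the members, 1580 in the table, took 0.374% ± 0.0241 of the counts in the control, 0.399% ± 0.0133 at 30 min and 0.337% ± 0.00889 at 24 h (SD, n = 3 each). Summed, they were thus at 0.901 of the control level after 24 h, beside 0.905 for the members. The sums do not show that each pseudogene followed its gene. Adding pseudogene counts moved RPL39 from -0.14 to 0.18 and RPL36A from -0.53 to -0.14 on the log2 scale. The pseudogenes' part of the counts of gene and pseudogenes together was under 10% for all but 16 of the 78 members that have them. This part had a median of 0.380%. Exonic bases were shared with another gene of the same strand for 31 members, mostly with their own snoRNAs, and in no case for more than 50%.

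Other parts of the translation machinery were read from lists of genes. Of all 12035 genes tested at 24 h, 31.8% fell and 31.5% rose, and 11.2% fell at least 1.5-fold. Ribosome assembly factors, which act in the nucleolus and on pre-ribosomes, had the lowest median of the lists read: 54 of 56 tested fell and 0 rose at 24 h, 50 of them at least 1.5-fold, with a median log2 fold change of -0.98. Among them were the RNA helicase DDX21 at -1.54, the early 60S factor RRS1 at -1.46, nucleolin (NCL) at -1.13 and the rRNA methyltransferase fibrillarin (FBL) at -0.92, while nucleophosmin (NPM1) fell by 0.62. Mitochondrial ribosomal proteins, the counterparts in mitochondria, fell in 64 of 75 and rose in 0, with a median of -0.55. In both lists 0 members were higher at an unadjusted p below 0.05 and 0 rose with DESeq2. Initiation and elongation factors without a known TOP start fell in 14 of 17 and rose in 1, with a median of -0.56, EIF2B3 at -1.30 and EIF4E, the cap-binding protein, at -0.73 among them.

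Translation mRNAs with a known TOP start that are no ribosomal protein of the rule formed a further list. Of 16 tested 9 fell and 1 rose, against 31.8% and 31.5% of all genes. The median was -0.15 beside -0.22 for the ribosomal proteins, a difference that was not tested. EEF2, the elongation factor of translocation, fell by 0.22 and EIF3E by 0.57, EEF1A1 did not pass (0.10, adjusted p = 0.084, edgeR), and TPT1 rose by 0.65 (adjusted p = 6.1e-10, edgeR). At 30 min 0 of the 56 assembly factors fell in edgeR or DESeq2 (2 were lower at an unadjusted p below 0.05) and 1 rose, POLR1C. Of the 75 mitochondrial ribosomal proteins 0 passed with either tool, and 1 was higher at an unadjusted p below 0.05.

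**Figure D5:**
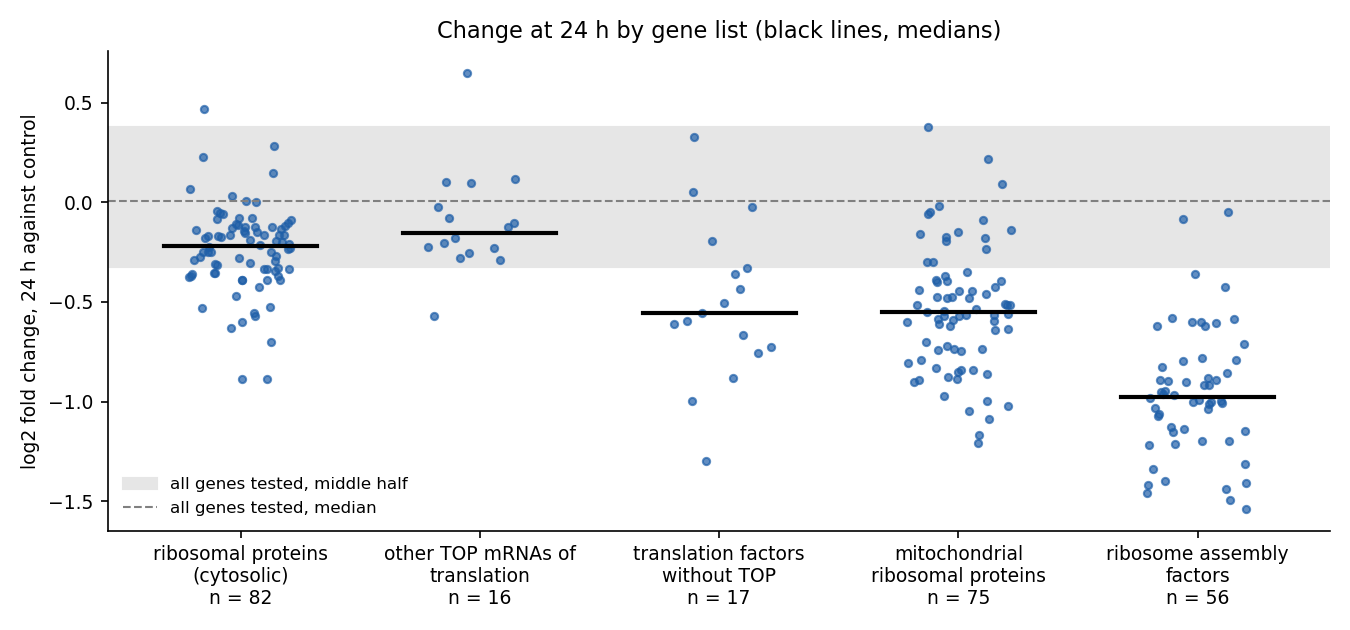
Log2 fold change at 24 h against the control of each gene in 5 lists, with 1 point per gene and a black line at the median. The grey band lies between the quartiles of all 12035 genes tested (-0.33 to 0.38) and the dashed line their median. Ribosomal proteins (median -0.22) and other TOP mRNAs (-0.15) lie nearer to 0 than translation factors without TOP (-0.56), mitochondrial ribosomal proteins (-0.55) and assembly factors (-0.98).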

How the data were processed

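RNA-seq of U937 cells covered 3 groups of 3 libraries. According to the methods the authors used poly(A) selection or rRNA removal and paired-end sequencing. Per the labels (the submitters' processing notes) they trimmed with cutadapt 1.9.1, mapped with HISAT2 2.0.1 and counted with HTSeq 0.6.1. The labels name GRCh37 and the methods hg38, and this was not settled here; the strand setting and the treatment of reads with several matches are not given in the sources used here. The authors deposited whole-number counts and FPKM of 57905 genes in a single table, and 0 columns of it were left unused. Counts were used for tests and shares, the authors' FPKM for filters and levels.

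Symbols, biotypes, snoRNAs, pseudogenes and overlaps came from GENCODE 44 (51996 genes matched), start windows from RefSeq, and printed coordinates are GRCh38.p14. The main test was edgeR 4.0.16 (R 4.3.3) with quasi-likelihood on genes with a mean above 1 FPKM over the 6 libraries compared, TMM factors on these genes with full library totals, and all 9 libraries in the fit; standard errors were taken as the log2 fold change divided by the square root of F. The code was tested on simulated data. Members, lists and tests were chosen with earlier results of these data known. Members were named when changed 1.5-fold at an adjusted p below 0.05 in any comparison, when among the 5 largest changes in either direction at 24 h, the 5 smallest adjusted p at 30 min or the 3 most and 3 least abundant, when part of a near-copy pair, or for a fixed role. RPL37, RPS21, RPL37A, RPS28, RPL15 and the genes of the other lists were named after their values were seen. Some genes that these rules cover are not reported here. Alternatives were no filter, 5 FPKM, the filter over 9 libraries, DESeq2 size factors, library totals, TMM without the members, DESeq2 1.42.0, limma 3.58.1 on log2(FPKM + 0.1) or log2(FPKM + 1), a replicate block, 6 libraries alone, pseudogene counts added, a 1.2-fold threshold and each library left out; TMM over all genes was added after the data were seen. The libraries within each group differed beyond counting noise (chi-square per degree of freedom of at least 2.14) and were kept apart.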

Additional observations from a re-analysis of the deposited data

Results flagged for a closer look

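The changes at 24 h and at 30 min against the shared controls differed by the test of that difference, the comparison of 24 h with 30 min in edgeR. For 71 of the 82 members the value at 24 h was lower and for 2 it was higher (adjusted p below 0.05). Among the members lower at 24 h the difference was at least 1.5-fold for RPL26L1 (-0.95 on the log2 scale), RPL7L1 (-0.83), RPS26 (-0.80), RPL21 (-0.79), RPL14 (-0.72), RPL35 (-0.71), RPL36 (-0.68), RPL36A (-0.67) and RPL23 (-0.65). Groups of 3 libraries are too small for a test of single libraries that stand apart, so control replicate 2 was not tested as such.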

How the results depend on the processing

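With the 1.5-fold threshold, 9 members were down-regulated at 24 h with no filter or with TMM over all genes and 3 with a filter of 5 FPKM, library totals alone or limma with either pseudocount, against 5, and a 1.2-fold threshold gave 34 down-regulated and 2 up-regulated. From 30 min to 24 h the 1.2-fold threshold gave 57 down-regulated, against 9, the number up-regulated was 0 with no filter, 1 with TMM over all genes and 3 with a filter of 5 FPKM, library totals alone or limma with either pseudocount (RPLP0 added), against 2, and the median log2 fold change of -0.33 was -0.25 with library totals alone (-0.2521) and with limma (-0.2515 and -0.2502). Without a fold threshold, 42 members were down-regulated at 24 h with limma on either scale, 46 with 5 FPKM and 48 with library totals alone, against 56. The number was 66 with TMM over all genes and 68 with no filter. In these settings 3 to 5 members were up-regulated, against 4. The median log2 fold change of -0.22 at 24 h was -0.16 with 5 FPKM, -0.17 with library totals alone and -0.29 with no filter. At 30 min DESeq2 called 1 member higher. The cause of these shifts was not tested. Leaving out each library gave 0 to 3 members higher at 30 min, 1 to 3 up-regulated from 30 min to 24 h, 45 to 60 down-regulated at 24 h and a difference in share at 24 h of -0.725 to -0.362 percentage points.

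Direction changed for values near 0: RPS3 at 24 h (-0.035 with no filter or TMM over all genes, -0.014 to 0.094 over the libraries left out), RPS4X (-0.0011 in both of these settings, but called higher with 5 FPKM at 0.12, adjusted p = 0.037, and with library totals alone at 0.11, adjusted p = 0.045, edgeR), RPL22 (0.00020 with 5 FPKM), RPL39L (-0.20 to 0.035 over the libraries left out), RPL26L1 at 30 min (-0.0011 to 0.076 likewise) and RPS27 from 30 min to 24 h (-0.0094 with no filter or TMM over all genes, -0.015 to 0.11 over the libraries left out), and for RPL39 with pseudogene counts added (0.18). Of 1518 values of single members under an alternative, 1435 stayed on their side of the threshold and in their direction, 36 lost and 33 gained a call. At 24 h RPS6, RPS14, RPS18 and RPL10 were called lower with no filter and with TMM over all genes, RPS19 with no filter, RPS6 and RPS14 also with TMM without the members, RPS6 with DESeq2 size factors, and RPS6, RPS14 and RPS18 with the 6 libraries alone.

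Same-numbered libraries of different groups had correlations of -0.159 to 0.103 in their deviations, and libraries with different numbers had -0.154 to 0.188. These values show no pairing by number. With 3 libraries per group they cannot exclude it. With the replicate block 53 members were down-regulated and 3 up-regulated at 24 h, and 70 and 2 from 30 min to 24 h. Depth was not limiting for most members, while RPL39, RPL36A, RPL17 and RPL21 are among those that rest on how reads shared with pseudogenes were counted. Pseudogenes held over 10% of the counts of gene and pseudogenes for 16 members, RPL13A (26.5%) and RPL7 (25.3%) among them. With pseudogene counts added, RPL13A was at -0.31 and RPL7 at -0.30 on the log2 scale at 24 h, beside -0.29 and -0.31.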
